A study of Mus musculus with 12 samples.

Results

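The 6 St8sia genes of the mouse and Ncam1 were followed in cochlear RNA after sound exposure. Together they make and carry polysialic acid and related sialic acid chains. The 7 genes were chosen by symbol from 35496 genes in the table of read counts, and all 7 were kept among the 19497 genes tested. The choice was also guided by a value: the fall of St8sia3 at 94 dB was known when the family was taken up. St8sia3 is therefore described with no test, and the other 6 genes are given with tests across all genes.

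The RNA came from the cochlea, the hearing organ, of FVB/NCrl mice at postnatal day 60. All animals were awake in a 30-minute exposure to sound at 70 dB (called ambient in the labels), 94 dB or 105 dB, and RNA was taken immediately afterwards, so each group shows a single early time point. Each of the 3 groups has 4 libraries, with 31141706 to 42317781 counted reads per library. No group carries an engineered allele, and the sources used here do not say whether a library is 1 animal or a pool, and each p-value here reflects library-to-library spread that may be technical. Levels are given as CPM, read counts scaled to the size of each library, and a count of 3 reads corresponds to 0.0703 to 0.0966 CPM, so all 7 genes were well above the counting floor in every library. Fold changes are log2 values from edgeR's quasi-likelihood fit with standard errors (SE). Adjustment of p was by Benjamini-Hochberg across the 19497 tested genes, and a gene is said to have risen or fallen only at an adjusted p below 0.05.

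Polysialic acid is a long chain of sialic acid residues carried mainly by the neural cell adhesion molecule NCAM, the product of Ncam1. The bulky, charged chain weakens contacts between cells and is known for its part in axon growth, cell migration and synaptic plasticity. St8sia2 and St8sia4 encode the enzymes that build it, the first mainly active in development and the second retained more in the adult nervous system. St8sia3 encodes an enzyme of neurons that makes short sialic acid chains, St8sia1 encodes GD3 synthase and St8sia5 a further enzyme that extends gangliosides, the sialic acid glycolipids of the cell membrane, and St8sia6 acts mainly on sugars linked to serine and threonine of proteins. In the inner ear, NCAM is known from auditory nerve fibres and from development.

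The promoters of 3 of the genes are shown because their test results differ. St8sia2 and St8sia6 were lower at 94 dB than in both other groups, while St8sia4, the other polysialic acid gene, did not pass the test. The difference between these genes was not tested. RefSeq promoters of GRCm38.p6 matched 4 of the 7 genes, these 3 and St8sia1, which is not shown. Each promoter runs from 250 bases before to 50 bases after RefSeq's start of the gene. For St8sia6 that start lies inside the GENCODE M21 gene whose position is given with its values, so its window is downstream of the GENCODE start, while the windows of St8sia2 and St8sia4 span it. Each sequence is written 5′ to 3′ in the direction of the gene, which is the minus strand of the genome. Capitals mark the GC box GGGCGG and the motif TGACG, the core of the cyclic AMP response element, on either strand. The St8sia2 promoter lies at chr7:74013633-74013932, that of St8sia6 at chr2:13793471-13793770 and that of St8sia4 at chr1:95667545-95667844.
St8sia2: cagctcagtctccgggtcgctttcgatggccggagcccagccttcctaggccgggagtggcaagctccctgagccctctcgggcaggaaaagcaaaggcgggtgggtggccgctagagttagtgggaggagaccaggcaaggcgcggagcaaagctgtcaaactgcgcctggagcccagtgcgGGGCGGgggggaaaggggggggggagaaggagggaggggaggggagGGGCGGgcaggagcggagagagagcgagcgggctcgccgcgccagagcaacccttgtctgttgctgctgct
St8sia6: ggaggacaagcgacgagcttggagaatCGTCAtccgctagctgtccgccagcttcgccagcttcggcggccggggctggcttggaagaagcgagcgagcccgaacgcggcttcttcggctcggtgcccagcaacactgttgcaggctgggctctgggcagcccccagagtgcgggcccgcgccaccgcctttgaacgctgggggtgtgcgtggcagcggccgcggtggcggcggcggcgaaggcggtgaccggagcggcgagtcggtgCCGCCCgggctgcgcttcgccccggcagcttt
St8sia4: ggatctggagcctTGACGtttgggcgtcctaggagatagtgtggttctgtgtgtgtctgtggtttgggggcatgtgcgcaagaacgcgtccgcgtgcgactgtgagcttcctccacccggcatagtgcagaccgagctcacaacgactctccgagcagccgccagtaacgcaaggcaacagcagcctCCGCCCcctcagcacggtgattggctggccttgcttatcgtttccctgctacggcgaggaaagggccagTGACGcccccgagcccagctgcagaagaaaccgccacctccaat
GC content was 68.7% in the St8sia2 promoter, 72.0% in that of St8sia6 and 61.3% in that of St8sia4, against a median of 52.7% over 32851 promoters of the same length. Of those promoters, 88.5% had a lower GC content than St8sia2 and 93.1% a lower one than St8sia6. The GC box matched 2 times in St8sia2, 1 time in St8sia6 and 1 time in St8sia4, and 35.7% of all promoters held at least 1 match. TGACG matched 2 times in St8sia4 and 1 time in St8sia6 but was not in this window of St8sia2, and 20.8% of all promoters held it. The full element TGACGTCA (in 1.80% of promoters), the AP-1 motif TGANTCA (7.80%) and the TATA motif TATAAA (13.6%) were in none of these 3 windows on either strand. TGACG lies inside TGACGTCA and may overlap TGANTCA, and a match describes letters only.

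The libraries differed in ways that bear on these genes. Replicate 4 at 70 dB held 53.3 CPM of Scn10a and 49.9 CPM of Calca, both typical of somatosensory ganglion neurons, while the other 11 libraries held 0.0311 to 4.89 CPM of Scn10a and 1.18 to 11.6 CPM of Calca. The summed level of a list of such neuron markers, added after the data were seen, was 416 CPM in that library and 51.8 to 133 CPM in the other 11. Replicates 3 and 4 at 94 dB held 31300 and 32450 CPM of summed erythroid markers against 18840 and 22570 CPM in replicates 1 and 2. Replicate 3 at 105 dB held 31440 CPM, as much as that pair, the other 105 dB libraries 22290 to 25760 CPM and the 70 dB libraries 18150 to 22270 CPM. Prl, the pituitary hormone prolactin, ranged from 8.68 to 580 CPM over all libraries. Cochlear markers were present throughout: summed hair cell markers stood at 141 to 164 CPM, and all 12 hair cell and all 20 spiral ganglion neuron markers had reads.

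**Figure D1:**
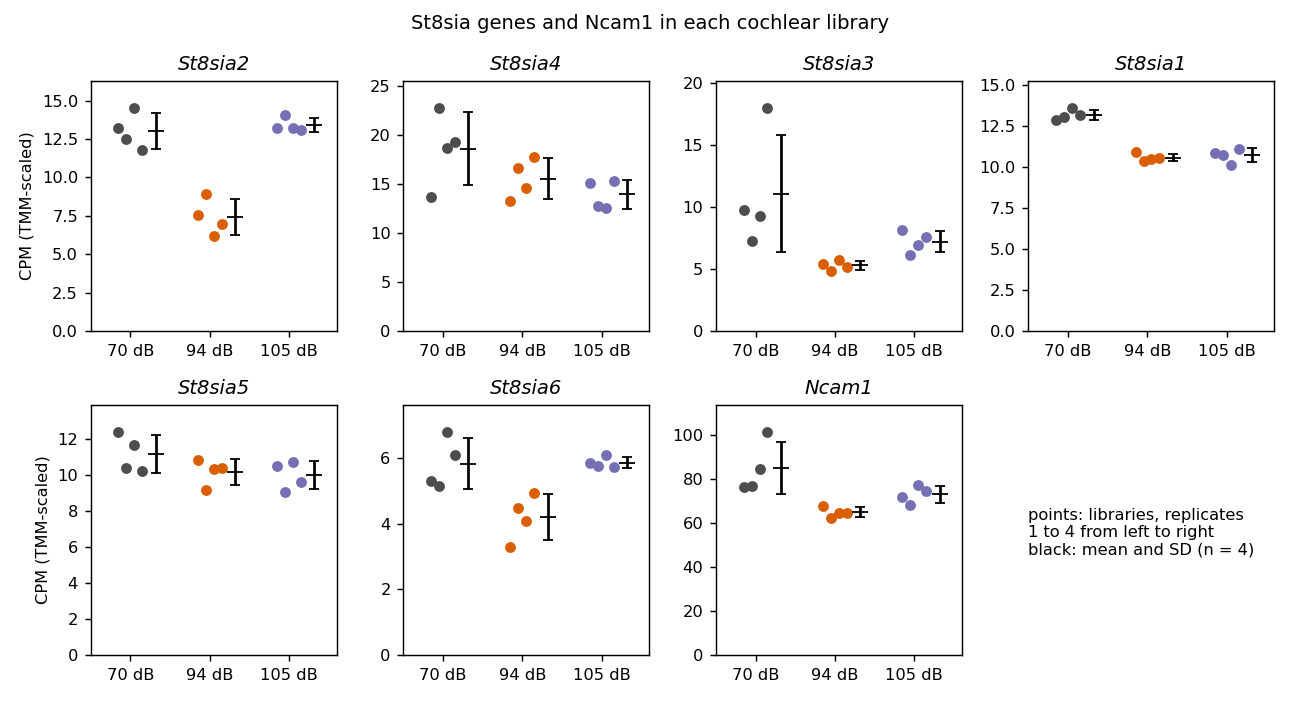
CPM (vertical axes, starting at 0) of the 7 genes in each of the 12 libraries by sound level; points are libraries and black bars are the mean and SD of 4. St8sia2 is lowest in all 4 libraries at 94 dB, St8sia3 has a single high library of 18 CPM at 70 dB, and St8sia1 is lower in both louder groups than at 70 dB.

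St8sia2, one of the pair of polysialic acid synthases, was lower after 94 dB than after either 70 or 105 dB. The gene lies on the minus strand of chromosome 7, at 73939119 to 74013690 of mm10 (ENSMUSG00000025789). At 70 dB its libraries read 13.2, 12.5, 14.5 and 11.8 CPM. At 94 dB they read 7.54, 8.95, 6.22 and 6.99 CPM. At 105 dB they read 13.2, 14.1, 13.2 and 13.1 CPM. Every library at 94 dB was below every library of the other groups, and the 70 and 105 dB libraries overlapped. The means were 13.0 ± 1.17 (SD, n = 4), 7.42 ± 1.15 and 13.4 ± 0.442 CPM. St8sia2 fell at 94 dB against 70 dB, with a log2 fold change of -0.81 (SE 0.111), or 0.571 of the 70 dB level, and an edgeR adjusted p of 0.00016. At 105 dB it was 1.80 times the 94 dB level, a log2 fold change of 0.85 (SE 0.111) with an edgeR adjusted p of 0.000554. Between 105 and 70 dB the log2 difference was 0.04 (SE 0.108, 95% interval -0.19 to 0.27, edgeR adjusted p 0.863). Both calls held in all 23 other settings, among them the removal of 94 dB replicates 3 and 4 together, which left log2 values of -0.65 and 0.70 with edgeR adjusted p of 0.00513 and 0.0169. Over the settings the adjusted p ran from 3.46e-10 to 0.00515 for the fall and from 1.94e-10 to 0.0169 for the difference between 105 and 94 dB.

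St8sia4, the other polysialic acid synthase, did not pass the test in any comparison. It lies on the minus strand of chromosome 1 at 95587682 to 95667571 (ENSMUSG00000040710). Its libraries read 13.7, 22.8, 18.7 and 19.3 CPM at 70 dB. They read 13.2, 16.6, 14.6 and 17.8 CPM at 94 dB, and 15.1, 12.8, 12.6 and 15.3 CPM at 105 dB. The lowest 70 dB library lay among those of both louder groups, so the groups overlapped. The log2 fold change was -0.26 (SE 0.137, 95% interval -0.55 to 0.03, edgeR adjusted p 0.180) at 94 dB against 70 dB. It was -0.42 (SE 0.137, 95% interval -0.70 to -0.13, edgeR adjusted p 0.135) at 105 dB against 70 dB, and -0.16 (SE 0.138, edgeR adjusted p 0.469) at 105 dB against 94 dB. Without 70 dB replicate 1, the lowest of its group, both falls passed the test, with log2 values of -0.38 and -0.53 and edgeR adjusted p of 0.0338 and 0.0479. Over all settings the p ran from 0.0338 to 0.480 for the first and from 0.0479 to 0.322 for the second. Removal of the trend with GC content and length turned the 94 dB value to 0.14 and gave -0.40 for 105 dB against 94 dB, with an edgeR adjusted p of 0.0496 for the latter, where the range over the settings was 0.0489 to 0.825. Pearson's r of St8sia4 with summed pituitary markers was 0.809 over the 12 libraries and 0.695 within groups. Those markers summed to 104.1 CPM in 70 dB replicate 1 and 496 to 809 CPM in the other 70 dB libraries. They summed to 22.23 to 873.7 CPM at 94 dB and 24.99 to 105.1 CPM at 105 dB. Without 70 dB replicate 1, only the 70 dB libraries rich in these markers were left. The part of pituitary tissue in the St8sia4 values was not tested.

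The ratio of the pair was lowest at 94 dB. Reads of St8sia2 per read of St8sia4 were 0.726 ± 0.188 (SD, n = 4) at 70 dB. The ratio was 0.482 ± 0.0855 at 94 dB and 0.972 ± 0.125 after 105 dB. The libraries at 94 dB ranged from 0.393 to 0.570, those at 70 dB from 0.548 to 0.968 and those at 105 dB from 0.854 to 1.10, so the 94 and 70 dB ranges overlapped. Across the 12 libraries the log2 CPM of both genes had a Pearson r of 0.03, given as a description of libraries that share groups and scaling.

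Ncam1, which encodes the protein that carries most polysialic acid, was lowest at 94 dB and fell there against 70 dB. It lies on the minus strand of chromosome 9 at 49502136 to 49798925 (ENSMUSG00000039542). Its libraries read 76.0, 76.7, 84.5 and 101 CPM at 70 dB. At 94 dB they read 67.7, 62.4, 64.6 and 64.4 CPM, and at 105 dB 71.8, 68.0, 77.3 and 74.4 CPM. Every 94 dB library was below every library of both other groups, while the 105 and 70 dB libraries overlapped. The log2 fold change at 94 dB against 70 dB was -0.39 (SE 0.083, edgeR adjusted p 0.00336). Ncam1 did not pass the test at 105 dB against 70 dB, with -0.22 (SE 0.083, 95% interval -0.39 to -0.04, edgeR adjusted p 0.183), nor at 105 dB against 94 dB, with 0.17 (SE 0.083, 95% interval -0.01 to 0.35, edgeR adjusted p 0.171). The highest library was 70 dB replicate 4, which also held the somatosensory transcripts. Without 70 dB replicate 4 and 94 dB replicates 3 and 4 the log2 value was -0.28 with an edgeR adjusted p of 0.0620, the one setting of 23 in which the call at 94 dB was lost (range 0.000387 to 0.0620). Reads of Ncam1 per read of Snap25, a gene of nerve terminals, were 0.117 ± 0.00746, 0.118 ± 0.00967 and 0.111 ± 0.00144 (SD, 4 libraries each) at 70, 94 and 105 dB. Snap25 itself fell at 94 dB, with a log2 fold change of -0.38 (SE 0.081, edgeR adjusted p 0.0031), so numerator and denominator of this ratio were both lower. In bulk RNA, fewer cells of a type and less RNA per cell cannot be told apart.

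St8sia3, the enzyme of neurons that makes short chains, was lowest at 94 dB and variable at 70 dB. It lies on the plus strand of chromosome 18 at 64254359 to 64279611 (ENSMUSG00000056812). Its libraries read 9.77, 7.29, 9.24 and 18 CPM at 70 dB. They read 5.42, 4.81, 5.74 and 5.20 CPM at 94 dB, and 8.11, 6.13, 6.95 and 7.62 CPM at 105 dB. All 4 libraries at 94 dB lay below all libraries of the other groups, and 70 dB replicate 4 stood above the other 11. The log2 fold change was -1.06 (SE 0.220) at 94 dB against 70 dB, a value known when the gene was taken up. It was -0.61 (SE 0.216) at 105 dB against 70 dB and 0.45 (SE 0.222) at 105 dB against 94 dB. Without 70 dB replicate 4 the first was -0.72 and the second -0.27. Per read of Ncam1, St8sia3 had 0.128 ± 0.0358 reads (SD, n = 4) in the 70 dB group, 0.0817 ± 0.00505 in the 94 dB group and 0.0989 ± 0.0110 in the 105 dB group.

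St8sia1, which makes the ganglioside GD3, was lower in every library of both louder groups than in every 70 dB library. It lies on the minus strand of chromosome 6 at 142821545 to 142964452 (ENSMUSG00000030283). The libraries read 12.9, 13.1, 13.6 and 13.2 CPM at 70 dB. At 94 dB they read 10.9, 10.4, 10.5 and 10.6 CPM, and at 105 dB 10.9, 10.8, 10.1 and 11.1 CPM. The 94 and 105 dB libraries overlapped each other, with means of 10.6 ± 0.238 and 10.7 ± 0.431 CPM against 13.2 ± 0.318 CPM (SD, n = 4) at 70 dB. St8sia1 fell at 94 dB, with a log2 fold change of -0.32 (SE 0.081, edgeR adjusted p 0.00932). A log2 value of similar size at 105 dB, -0.30 (SE 0.081, 95% interval -0.47 to -0.13), did not pass, with an edgeR adjusted p of 0.0711, and passed with DESeq2 (adjusted p 0.0141, in a range of 0.0141 to 0.210 over the settings). Between 105 and 94 dB the difference was 0.02 (SE 0.081, 95% interval -0.15 to 0.19, edgeR adjusted p 0.910). The call at 94 dB was lost once the trend with GC content and length was removed (-0.15, edgeR adjusted p 0.186) and without 94 dB replicates 3 and 4 (-0.31, edgeR adjusted p 0.0754), in a range of 0.00159 to 0.220.

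St8sia5, the other ganglioside enzyme of the family, did not pass the test in any comparison. It lies on the plus strand of chromosome 18 at 77185839 to 77258771 (ENSMUSG00000025425). Its libraries read 12.4, 10.4, 11.6 and 10.2 CPM at 70 dB, 10.8, 9.14, 10.3 and 10.4 CPM at 94 dB, and 10.5, 9.06, 10.7 and 9.58 CPM at 105 dB. The 3 groups overlapped. The log2 fold change was -0.13 (SE 0.1, 95% interval -0.35 to 0.08, edgeR adjusted p 0.351) at 94 dB and -0.16 (SE 0.1, 95% interval -0.38 to 0.05, edgeR adjusted p 0.401) at 105 dB, each against 70 dB. It was -0.03 (SE 0.101, edgeR adjusted p 0.879) between 105 and 94 dB.

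St8sia6, which extends sialic acid on protein sugars, had the lowest CPM of the family and the same order of groups as St8sia2. It lies on the minus strand of chromosome 2 at 13651021 to 13794064 (ENSMUSG00000003418). The libraries read 5.29, 5.14, 6.81 and 6.09 CPM at 70 dB. At 94 dB they read 3.30, 4.49, 4.07 and 4.93 CPM, and at 105 dB 5.86, 5.76, 6.09 and 5.73 CPM. All 94 dB libraries were below all others, though the highest at 94 dB was close to the lowest at 70 dB. St8sia6 fell at 94 dB against 70 dB, with a log2 fold change of -0.47 (SE 0.139, edgeR adjusted p 0.0210), and was higher at 105 dB than at 94 dB by 0.48 on the log2 scale (SE 0.140, edgeR adjusted p 0.0272), or 1.39-fold. The 105 and 70 dB groups differed by 0.01 (SE 0.138, 95% interval -0.28 to 0.30, edgeR adjusted p 0.980). These calls were close to the threshold. The fall was lost without 70 dB replicate 3 (edgeR adjusted p 0.0768), 70 dB replicate 4 (0.0525), 94 dB replicate 1 (0.0625) and 94 dB replicate 3 (0.0540), each left out alone, and its p ran from 0.00793 to 0.240 over all settings. The difference between 105 and 94 dB was lost without 94 dB replicate 1 (edgeR adjusted p 0.0665), 94 dB replicate 3 (0.0756) and any single 105 dB library (0.0516 to 0.0577), and its p ran from 0.00866 to 0.164. With the trend with GC content and length removed, the fall was -0.25 (edgeR adjusted p 0.240).

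Some counts may hold reads of a second gene, because the sources used here do not say whether strand was used in counting. The exons of St8sia3 share 919 bases with St8sia3os on the opposite strand, those of Ncam1 417 bases with Gm11149 and those of St8sia5 387 bases with Gm7276. St8sia1 shares 149 bases with Gm7457 and St8sia6 112 bases with Gm37126. St8sia2 shares no exonic base with Gm38143, the gene that overlaps it.

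**Figure D2:**
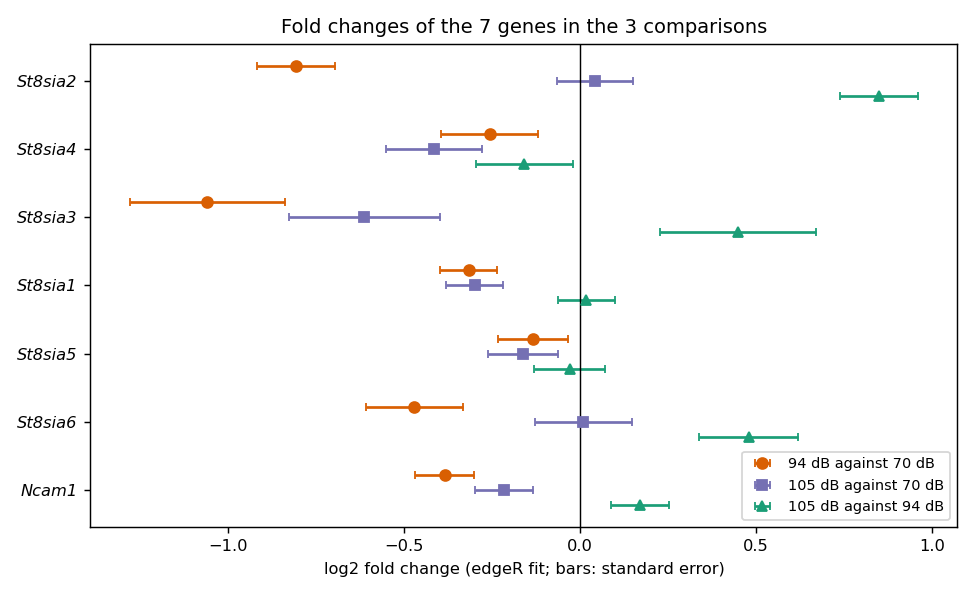
Log2 fold change from the edgeR fit (horizontal axis, bars are SE) of the 7 genes in the 3 comparisons. St8sia2 and St8sia6 lie to the left of 0 at 94 dB and at 0.04 and 0.01 at 105 dB against 70 dB, while St8sia1 is at -0.32 and -0.30 in both.

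Most of the family was lower at 94 dB. Of the 6 genes other than St8sia3, 4 fell at 94 dB against 70 dB (St8sia2, St8sia6, Ncam1 and St8sia1) and 0 rose, also at an unadjusted p below 0.05 and with DESeq2. Of all 19497 genes, 26.1% were called in this comparison and 12.2% were called lower. The same 4 genes had all 94 dB libraries below all 70 dB libraries, which held for 12.3% of all genes. At 105 dB against 70 dB, 0 of the 6 passed the edgeR test. At an unadjusted edgeR p below 0.05, 3 were lower (Ncam1, St8sia4 and St8sia1), and with DESeq2 1 fell, St8sia1. Those tests gave 9.53% and 1.96% of all genes as lower. Of all genes, 1.62% were called by edgeR in this comparison and 0.508% were called lower. St8sia1 was the 1 gene of the 6 with all 105 dB libraries below all 70 dB libraries, as were 5.03% of all genes. St8sia2 and St8sia6, 2 of 6, were higher at 105 dB than at 94 dB, where 17.3% of all genes were called and 8.06% were called higher. All 105 dB libraries were above all 94 dB libraries for St8sia2, St8sia6 and Ncam1, 3 of 6, and for 10.5% of all genes. Without St8sia3, which was taken up with its value known, the median log2 fold change of the 6 genes was -0.35, -0.19 and 0.09 in the 3 comparisons in that order, beside -0.02, 0.00 and 0.00 over all genes. The comparisons of 94 and 105 dB with 70 dB share the 70 dB libraries.

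The trend of fold change with transcript GC content and with length, taken as the union of a gene's exons, bears on these counts. Over 14943 genes, Spearman's rho of the log2 fold change with GC content was 0.53 and with length -0.35 at 94 dB against 70 dB, and -0.54 and 0.23 at 105 dB against 94 dB. Genes are not independent replicates, and these are descriptions. Transcript GC content was 49.96% for St8sia2, 49.86% for Ncam1, 45.5% for St8sia1, 43.9% for St8sia3, 41.2% for St8sia6, 36.1% for St8sia4 and 54.8% for St8sia5, against a median of 49.6% over the tested genes. All 7 genes are longer than the median tested gene, with 5384 (St8sia2) to 20091 (St8sia4) bases of exon against 3724.5, which is the side of the length trend that went lower at 94 dB. With the trend removed, 2 of the 6 genes, St8sia2 and Ncam1, were called at 94 dB against 70 dB. St8sia2 then stood at -0.79 (edgeR adjusted p 0.00017, in the range given above).

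**Figure D3:**
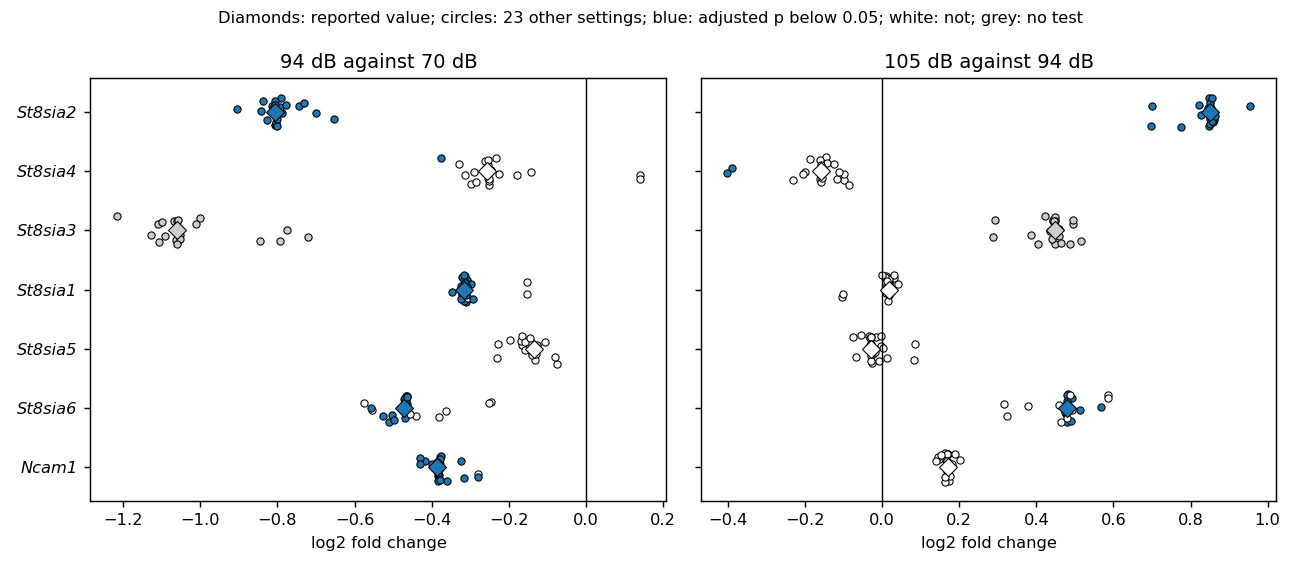
Log2 fold change (horizontal axes) of the 7 genes at 94 dB against 70 dB and at 105 dB against 94 dB. Diamonds are the reported values and circles the 23 other settings, blue where the adjusted p was below 0.05, white where it was not and grey for St8sia3, which has no test; every St8sia2 circle is blue.

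Levels between genes were compared as CPM per kilobase of exon. At 70 dB Ncam1 was far above the enzymes, with 9.77 ± 1.37 CPM per kb (SD, n = 4). St8sia2 followed with 2.42 ± 0.218 and St8sia5 with 2.05 ± 0.194 CPM per kb, and libraries of this pair overlapped. St8sia1 stood at 1.41 ± 0.0340 CPM per kb, St8sia3 at 0.946 ± 0.404, St8sia4 at 0.926 ± 0.186 and St8sia6 at 0.761 ± 0.101, and each neighbour in this order overlapped the next. At 94 dB St8sia5, with 1.87 CPM per kb, was above St8sia2, with 1.38, and St8sia2 overlapped St8sia1, with 1.13. St8sia4 (0.774 CPM per kb), St8sia6 (0.548) and St8sia3 (0.452) came last, and the last pair overlapped. At 105 dB St8sia2, with 2.49 CPM per kb, was again the highest enzyme. The place of St8sia4 depended on the length used: the union of its exons is 20091 bases and its longest transcript 10027 bases, and with the latter it stood at 1.86 CPM per kb at 70 dB.

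Marker lists were set beside the genes, with r over 12 libraries that share groups and scaling. St8sia2 moved with the summed supporting cell markers, which were 1627 to 1741 CPM at 70 dB, 1273 to 1469 CPM at 94 dB and 1568 to 1693 CPM at 105 dB, with 10 of 10 markers detected and none at 0. At 94 dB 1 of the 10 markers rose and 3 fell, 4 of 10 called beside 26.1% of all genes. Fgfr3 rose (log2 0.56), Gjb2 (-0.41), Slc1a3 (-0.28) and Tecta (-0.49) fell, and Sox2 (-0.015) was among those not called. Pearson's r of St8sia2 with the sum of the 10 markers was 0.91 over all libraries and 0.52 within groups. A sum of CPM is weighted towards its most abundant markers, so this r may follow a few of the 10. Per 1000 CPM of supporting cell markers, St8sia2 stood at 7.82 ± 0.480 CPM (SD, n = 4) in the 70 dB group, 5.32 ± 0.663 in the 94 dB group and 8.28 ± 0.516 in the 105 dB group. Its 94 dB range of 4.50 to 6.09 lay below the lowest 70 dB library of 7.23. St8sia2 also had an r of 0.82 (0.68 within groups) with cycling cell markers, whose sums were 730 to 869 CPM at 70 dB, 596 to 791 CPM at 94 dB and 852 to 1087 CPM at 105 dB. The part of these cells in the St8sia2 values was not tested beyond the ratio given.

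Summed macrophage and B cell markers stood higher at 94 dB than at 70 dB, the opposite way to the falls of the St8sia genes and Ncam1. Summed macrophage markers were 546 to 655 CPM at 94 dB, above all libraries at 70 dB (440 to 515 CPM) and 105 dB (474 to 527 CPM). Against 70 dB, 4 of 8 markers were called higher and 1 lower, beside 13.9% and 12.2% of all genes, and none of the 8 was at 0. The 4 were C1qa (log2 0.88), C1qb (0.54), C1qc (0.59) and Adgre1 (0.305), and Cx3cr1 fell (-0.66). Csf1r (0.025), Cd68 (0.001) and Mrc1 (-0.17) were not called. Pearson's r of the macrophage sum over the 12 libraries was -0.77 with St8sia2 (0.14 within groups), -0.79 with St8sia3 (-0.59), -0.72 with Ncam1 (-0.34), -0.56 with St8sia1 (-0.29) and -0.52 with St8sia6 (0.56). Summed B cell markers were 163 to 181 CPM at 94 dB, 108 to 151 CPM at 70 dB and 135 to 171 CPM at 105 dB, with 1 of 5 markers called higher at 94 dB against 70 dB. Summed neutrophil and marrow markers overlapped, at 8245 to 15960 CPM at 94 dB and 8127 to 10040 CPM at 70 dB (4 of 9 called higher, 0 lower). Natural killer and T cell markers also overlapped, at 40.8 to 59.1 CPM and 35.3 to 47.4 CPM (2 of 7 called higher, 0 lower). The part of these cells in the results at 94 dB was not tested.

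St8sia3 and Ncam1 moved with somatosensory and central neuron markers, and less closely with spiral ganglion neuron markers. With the list of somatosensory ganglion markers, r was 0.91 for St8sia3 and 0.90 for Ncam1 (0.94 and 0.93 within groups). That list holds Isl1, the gene closest in r to St8sia3. Isl1 made up 26.3 CPM of the mean sum of 71.3 CPM at 94 dB, and 29.6 of 75.7 CPM at 105 dB. The sum was 416 CPM in 70 dB replicate 4, and no r without that library is given here. With central neuron markers r was 0.94 for both St8sia3 and Ncam1. Slc17a6 alone made up 60.1 CPM of the mean central neuron sum of 93.1 CPM at 70 dB, and 5 of its 10 markers passed the filter, so this r largely repeats that of one gene. The sums were 82.8 to 122 CPM at 70 dB, 63.7 to 73.7 CPM at 94 dB and 78.2 to 83.3 CPM at 105 dB. Summed spiral ganglion neuron markers overlapped between the groups, at 3904 to 4882, 3768 to 4421 and 3813 to 4341 CPM. With that sum, r was 0.51 for St8sia3 and 0.48 for Ncam1 (0.74 and 0.71 within groups). Within that list, 2 of 20 markers rose and 3 fell at 94 dB against 70 dB, a share of calls close to that of all genes. The 2 that rose were Slc17a7 (log2 0.275) and Kcnc1 (0.235), and the 3 that fell were Snap25 (-0.38), Elavl4 (-0.39) and Syt1 (-0.56). Summed Schwann cell and myelin markers ranged from 3544 to 5655 CPM at 70 dB, 2954 to 4048 CPM at 94 dB and 2993 to 4102 CPM at 105 dB. With this sum, r was 0.53 for St8sia3 and 0.46 for Ncam1 (0.215 and 0.047 within groups). For St8sia5 it was 0.895 (0.847 within groups). The part of tissue makeup in the St8sia3 and Ncam1 values was not tested beyond the values without 70 dB replicate 4.

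**Figure D4:**
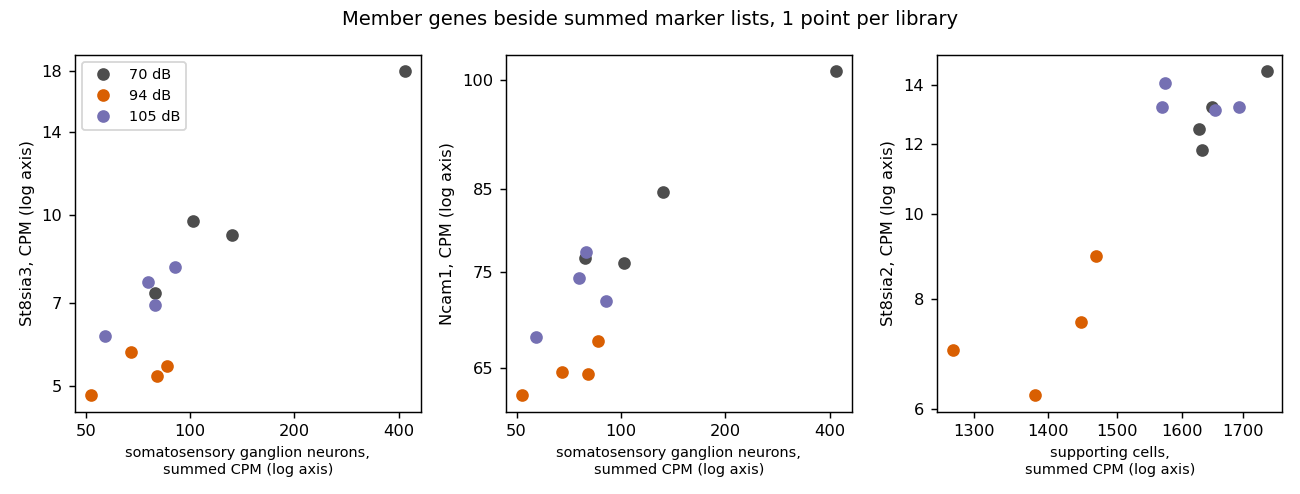
CPM of St8sia3, Ncam1 and St8sia2 (vertical log axes) against the summed CPM of marker lists (horizontal log axes), 1 point per library. The 70 dB library at 416 CPM of somatosensory markers is also the highest for St8sia3 and Ncam1, and the 4 libraries at 94 dB are lowest for both St8sia2 and the supporting cell sum.

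The genes most like each of 3 members were taken by Pearson's r of log2 CPM over the 12 libraries, among 13975 genes. For St8sia3 they were Isl1 (0.98), a transcription factor of sensory neurons, Gdap1 (0.98), Slc17a6 (0.97), a vesicular glutamate transporter, Dnm3 (0.97) and Akap6 (0.96), with r within groups of 0.92 to 0.95. For Ncam1 they were Slc17a6 (0.98), Fsd1l, Atrnl1, Camta1 and Hdac9 (0.97 each). Slc17a6 stood at 60.1 ± 14.2, 40.4 ± 1.93 and 46.5 ± 3.16 CPM (SD, n = 4) at 70, 94 and 105 dB. St8sia3 and Ncam1 had an r of 0.95 with each other. For St8sia2, a search added after its values were seen, they were Kat2b (0.98), an acetyltransferase, Bora (0.98), a mitotic regulator, Cep295 (0.97), Bclaf1 (0.97) and mt-Cytb (0.97), the cytochrome b gene of the mitochondrial genome. The level of mt-Cytb was 8661 ± 338 CPM (SD, n = 4) in the 70 dB group, 5868 ± 899.8 CPM in the 94 dB group and 8557 ± 309 CPM in the 105 dB group. St8sia2 and St8sia6 had an r of 0.82 with each other, and 0.17 within groups.

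The wider pathway was described by 5 lists with 50 distinct genes, of which 47 were tested. At 94 dB against 70 dB, 10 of the 47 rose and 11 fell, where 13.9% of all genes rose and 12.2% fell. In the comparison of 105 with 70 dB 0 rose and 1 fell, where 1.11% and 0.508% of all genes did. At an unadjusted edgeR p below 0.05 the counts were 4 and 15 (9.20% and 9.53% of all genes), and with DESeq2 they were 0 and 4 (2.61% and 1.96% of all genes). Between 105 and 94 dB 2 were higher and 7 lower, beside 8.06% and 9.23% of all genes. Among the 7 genes listed for sialic acid supply and breakdown, 2 rose at 94 dB and 0 fell (median log2 fold change 0.23), near the 26.1% of all genes called in this comparison. One of the 2 was Nans, which makes sialic acid from its precursor (40.9 ± 3.76 to 51.0 ± 3.36 CPM, log2 0.32, edgeR adjusted p 0.00611). The other was Npl, a lyase that breaks sialic acid down (11.2 ± 0.666 to 14.2 ± 2.74 CPM, log2 0.34, edgeR adjusted p 0.0458), whose call was lost in 13 of 23 settings, among them the removal of each single 70 dB library (0.0610 to 0.104), 94 dB replicate 3 (0.145) or 4 (0.164) and 105 dB replicate 1 (0.0527), 2 (0.0596) or 4 (0.0518). Of 3 sialidases tested, which remove sialic acid, Neu1 of the lysosome rose at 94 dB (59.0 ± 2.05 to 72.4 ± 6.49 CPM, log2 0.30, edgeR adjusted p 0.00544).

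Of 12 other sialyltransferases tested, 4 rose at 94 dB and 0 fell, beside 13.9% and 12.2% of all genes. St6galnac4 rose from 30.1 ± 1.00 to 37.3 ± 1.20 CPM (SD, n = 4; log2 0.31, edgeR adjusted p 0.00280), and St3gal3 from 39.1 ± 2.92 to 50.4 ± 4.49 CPM (log2 0.37, edgeR adjusted p 0.00294), both genes of transferases of the Golgi. St6galnac6 rose from 45.6 ± 3.55 to 57.3 ± 4.47 CPM (log2 0.33, edgeR adjusted p 0.00713). St3gal3 was lower at 105 dB than at 94 dB (log2 -0.47, edgeR adjusted p 0.00190). St6gal1, which caps N-linked sugars, was the 1 listed gene called at 105 dB against 70 dB, falling from 63.4 ± 3.39 to 51.5 ± 2.70 CPM (log2 -0.30, edgeR adjusted p 0.0240). That call was lost without any single one of 70 dB replicates 1 (0.0704) and 3 (0.0555) and 105 dB replicates 2 (0.107), 3 (0.0651) and 4 (0.0602).

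Of 10 genes of ganglioside synthesis and breakdown, 3 rose and 2 fell at 94 dB, beside the same shares of all genes. Ugcg, the first enzyme of glycosphingolipid synthesis, fell from 73.8 ± 3.55 to 60.9 ± 3.81 CPM (log2 -0.28, edgeR adjusted p 0.00485), and B4galnt1, which makes complex gangliosides, rose from 44.9 ± 3.76 to 58.4 ± 8.41 CPM (log2 0.38, edgeR adjusted p 0.00954). B4galt5, which makes lactosylceramide, rose from 29.3 ± 1.41 to 36.8 ± 5.996 CPM (log2 0.33, edgeR adjusted p 0.0285) and Hexa, a lysosomal hexosaminidase subunit, from 193 ± 17.3 to 235 ± 28.8 CPM (log2 0.28, edgeR adjusted p 0.0328). The B4galt5 call was lost without 70 dB replicate 1 (0.0674) or 2 (0.0544) and without 94 dB replicate 3 (0.106) or 4 (0.104). The Hexa call was lost without 70 dB replicate 1 (0.0896), 3 (0.0707) or 4 (0.0511) and without 94 dB replicate 3 (0.0924) or 4 (0.118).

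Of 16 other carriers and partners of NCAM, 0 rose and 9 fell at 94 dB, beside 13.9% and 12.2% of all genes. The counts were 0 and 11 at an unadjusted edgeR p below 0.05 (19.6% and 18.7% of all genes) and also 0 and 11 with DESeq2 (15.9% and 13.7%). The median was -0.33 on the log2 scale and 15 of 16 were below 0. Cntn1, an adhesion protein of axons, fell from 68.9 ± 11.1 to 49.6 ± 3.76 CPM (log2 -0.48, edgeR adjusted p 0.00334), and Gfra1, a GDNF coreceptor that can bind NCAM, from 41.2 ± 1.52 to 31.5 ± 2.57 CPM (log2 -0.39, edgeR adjusted p 0.00504). Cadm1, an adhesion protein that can carry polysialic acid, fell from 149.8 ± 22.7 to 117 ± 8.80 CPM (log2 -0.35, edgeR adjusted p 0.0137, 0.0543 without 70 dB replicate 4). Glg1, a Golgi sialoglycoprotein, fell from 121 ± 3.36 to 103 ± 4.95 CPM (log2 -0.23, edgeR adjusted p 0.0158, 0.0536 without 94 dB replicate 4). None of these 16 passed the edgeR test at 105 dB against 70 dB, where 12 were lower at an unadjusted p below 0.05 (9.53% of all genes) and 3 fell with DESeq2 (1.96%), with a median of -0.29 and 16 of 16 below 0. Both comparisons hold 70 dB replicate 4, where Chl1, one of the 16, read 25.3 CPM against 5.32 to 8.15 CPM in the other 70 dB libraries. Gfra1 and Glg1 varied little at 70 dB (SD 1.52 and 3.36 CPM). List counts and medians without that library are not given here. Of the 15 pathway genes taken up by the rule for named genes, 14 were called at 94 dB, and 12 of those calls were lost without 94 dB replicates 3 and 4 together. With the trend with GC content and length removed, 7 of the 14 were lost. The call of St6galnac4 held in all 23 settings (edgeR adjusted p 7.37e-05 to 0.0453). Exons of Nans, B4galnt1, St6gal1, Hexa and Gfra1 overlap a gene on the opposite strand, so their counts are uncertain in the same way.

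**Figure D5:**
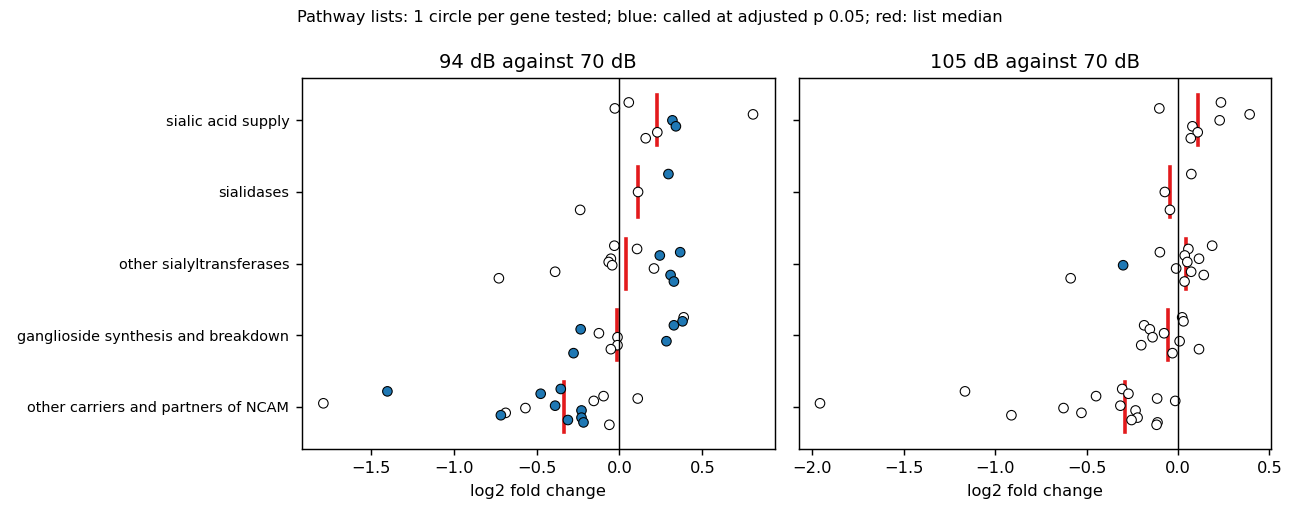
Log2 fold change (horizontal axes) of each tested gene of the 5 pathway lists at 94 dB and at 105 dB, each against 70 dB; blue circles passed an adjusted p of 0.05 and red lines are list medians. Among the carriers and partners of NCAM, 9 circles are blue at 94 dB and 0 at 105 dB, with medians of -0.33 and -0.29.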

How the data were processed

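Cochlear RNA of 12 libraries in 3 groups of 4 was analysed from whole-number counts of reads per gene, which the authors deposited without normalization. CASAVA, STAR, featureCounts 1.5.0-p3 and the mm10 build are named, per the submitters' processing notes. How these were set, which annotation was used, whether strand counted and how reads with several alignments were treated is not given in the sources used here. Per the labels' protocols, a TruSeq kit and total RNA were used. Sample titles gave the groups and the replicate numbers. Symbols (for 35449 of 35496 genes), positions and lengths came from GENCODE M21, and where 2 identifiers share a symbol, the one with more counts was used.

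Counts were fitted with edgeR 4.0.16 in R 4.3.3, using filterByExpr with a minimum count of 10 (19497 genes, 99.9% of counts), TMM scaling, 1 mean per group over all 12 libraries (9 residual degrees of freedom) and glmQLFit with robust dispersions. Tests are two-sided with an adjusted p threshold of 0.05, and the script was tested on simulated data. DESeq2 1.42.0, other scalings and filters, removal of a trend with GC content and length, a replicate block and left-out libraries were alternatives. The counting floor of 3 reads covers counting error only.

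The 7 genes, the lists and the settings were chosen with earlier results of these data known. Named genes were the 7 in full, up to 4 called genes per pathway list by smallest adjusted p, and the 5 genes closest in r to St8sia3 and to Ncam1. No pair of libraries within a group was a duplicate (chi-square per degree of freedom 11.4 to 48.3), and pairs across groups were not checked in this way.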

Additional observations from a re-analysis of the deposited data

Results flagged for a closer look

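In the 105 dB group, the St8sia2 value of replicate 2, 14.1 CPM, stood apart from the other 3 libraries, which lay at 13.1 to 13.2 CPM. Its gap to the nearest library was 0.873 of the group's whole range, above Dixon's 95% critical value for 4 libraries. Of 21 groups of 4 that were checked (7 genes in 3 groups), this was the only one past the limit, and chance flags about 1 in 20 such groups. The SD of that group was 0.442 CPM, and its mean was 13.4 CPM beside 7.42 CPM at 94 dB. St8sia3 in 70 dB replicate 4 reached a ratio of 0.768, under the limit.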

How the results depend on the processing

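Of the 6 tested genes, St8sia2 kept its calls in all 23 other settings, and the changes elsewhere were as follows; except where a setting itself has fewer genes or libraries, the cause was not tested. With no filter on low counts, St8sia1 at 94 dB against 70 dB was -0.313 (edgeR adjusted p 0.0504), and at 105 dB against 70 dB 523 genes and 3 listed pathway genes were called. DESeq2 called 891 genes, 1 of the 6 and 4 pathway genes there, with St8sia1 at -0.299 (adjusted p 0.0141). With upper-quartile factors, St8sia6 was -0.01 and Hexa -0.01 at 105 dB against 70 dB, and Glg1 was 0.008 at 105 dB against 94 dB.

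With the GC and length trend removed, 3211 genes, 2 of the 6 and 9 pathway genes were called at 94 dB against 70 dB, with St8sia1 at -0.152, St8sia4 at 0.141 and St8sia6 at -0.247. Hexa was then -0.065 at 105 dB against 70 dB. For 105 dB against 94 dB that setting called 1922 genes and 5 pathway genes, with St8sia1 at -0.103, St8sia4 at -0.403, St8sia5 at 0.086, St8sia6 at 0.315 and Cadm1 at -0.1.

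The replicate numbers were not taken as pairs, since not every same-numbered pair of libraries had an r of deviations over 0.1 (5 of 12 did, from -0.306 to 0.319, beside 7 of 36 differently numbered pairs). At 105 dB, however, replicates 3 and 4 carry C4 and C5 in their titles. Matched by title number 4, r was 0.168 between 70 and 94 dB, 0.186 between 70 and 105 dB and 0.143 between 94 and 105 dB. For title number 3 it was -0.077 between 70 and 94 dB. A fit paired by title number was not run. All 3 pairs of replicates 2 were over 0.1 (0.192, 0.282 and 0.319), and summed bone cell markers were highest in replicate 1 and lowest in replicate 4 of each group. A block by replicate number, which departs from the title numbers at 105 dB, changed no call of the 6. It called 479 genes and 4 pathway genes at 105 dB against 70 dB. With the block and that trend removed together, the fit called 2 of the 6 and 10 pathway genes at 94 dB against 70 dB, with St8sia1 at -0.153, St8sia4 at 0.141 and St8sia6 at -0.251. It called 660 genes and 3 pathway genes at 105 dB against 70 dB, with Hexa at -0.064. For 105 dB against 94 dB this block setting called 2039 genes and 5 pathway genes, with St8sia1 at -0.102, St8sia4 at -0.389, St8sia5 at 0.083, St8sia6 at 0.324 and Cadm1 at -0.097.

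Without 94 dB replicates 3 and 4, 1610 genes, 2 of the 6 and 3 pathway genes were called at 94 dB against 70 dB, with St8sia1 at -0.307 and St8sia6 at -0.575. For 105 dB against 94 dB 217 genes, 1 of the 6 and 0 pathway genes were called, with St8sia6 at 0.585. Without 70 dB replicate 4 as well, the counts at 94 dB against 70 dB were 1011, 1 and 2, with St8sia1 at -0.308, St8sia6 at -0.555 and Ncam1 at -0.28. That setting called 170 genes at 105 dB against 70 dB, with B4galnt1 at -0.024, and 274 genes, 1 of the 6 and 1 pathway gene at 105 dB against 94 dB, with St8sia6 at 0.586.

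With single libraries left out, at 94 dB against 70 dB 3452 to 5409 genes, 3 to 5 of the 6 and 10 to 22 pathway genes were called, with St8sia4 at -0.375 to -0.143, St8sia6 at -0.558 to -0.363 and St8sia3 at -1.22 to -0.72. At 105 dB against 70 dB 126 to 399 genes, 0 to 1 of the 6 and 0 to 2 pathway genes were called, with St8sia3 at -0.769 to -0.273, St8sia4 at -0.533 to -0.301 and St8sia6 at -0.047 to 0.098. Fewest were called without 105 dB replicate 2 (126), 70 dB replicate 4 (149), 105 dB replicate 3 (187) and 70 dB replicate 1 (191). At 105 dB against 94 dB 1650 (without 94 dB replicate 3) to 3798 genes, 1 to 2 of the 6 and 3 to 12 pathway genes were called, with St8sia5 at -0.076 to 0.014 and St8sia6 at 0.378 to 0.567. Signs turned for Hexa (-0.049 to 0.062), B4galnt1 (-0.017 to 0.09) and St6galnac6 (-0.009 to 0.099) at 105 dB against 70 dB, and for Glg1 (-0.037 to 0.037) at 105 dB against 94 dB.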
